A study of Homo sapiens with 6 samples.

Results

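Expression of 10 genes of the let-7 oncofetal axis (HMGA1, HMGA2, LIN28A, LIN28B, IGF2BP1, IGF2BP2, IGF2BP3, ARID3A, ARID3B and MYC) was followed in A172 cells that overexpressed either RBFOX1 or green fluorescent protein (GFP). The 10 genes were taken by Ensembl gene ID from the 58051 genes counted in each library. They were chosen by the measured fall of HMGA2 between GFP and RBFOX1 cells, beside 9 genes that textbooks place in the same let-7 pathway, so the difference between RBFOX1 and GFP cells is described for these genes and no p-value is given. Of the 10 genes, 8 had enough counts to enter the comparison of 20536 genes, and LIN28A and LIN28B did not.

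A172 is an established human glioblastoma line, and RBFOX1 is a neuronal RNA-binding protein that recognises TGCATG (in DNA letters) in its target transcripts. Stable lines were made by lentiviral transduction with pLX317-GFP or pLX317-RBFOX1, and 3 biological replicates of each were sequenced as stranded, rRNA-depleted total RNA. All 6 libraries therefore carry a lentiviral insert, come from 1 parental line and differ in the transgene, so ectopic RBFOX1 and differences between separately made lines cannot be told apart, and no untransduced cells were analysed here. The question addressed by the design was how raising RBFOX1 changes the abundance of mRNAs in glioblastoma cells.

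The let-7 microRNAs accumulate as cells differentiate and repress fetal genes through pairing of their seed with sites in 3' untranslated regions (UTRs). LIN28A and LIN28B are RNA-binding proteins of stem and fetal cells that block the maturation of let-7, and they are themselves let-7 targets. HMGA2, a chromatin architectural protein of embryonic tissue that many tumours express again, the fetal mRNA-binding proteins of the IGF2BP family, the AT-rich DNA-binding proteins ARID3A and ARID3B and the transcription factor MYC are other targets described for this pathway.

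The mature let-7 sequences are shown first, because the seed defines the sites that were searched. RefSeq (GRCh38.p14) lists 9 mature names from 12 loci, and all 9 share 1 seed, bases 2 to 8, given in capitals. The 4 printed here are made from loci whose host genes are described further on.
let-7a-5p: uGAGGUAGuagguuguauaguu
let-7c-5p: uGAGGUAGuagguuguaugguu
let-7g-5p: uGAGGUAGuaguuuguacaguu
miR-98-5p: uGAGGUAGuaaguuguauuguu

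Seed matches were counted in the canonical 3' UTR of each gene (GENCODE 44, GRCh38) on the transcribed strand only, as CTACCTCA (8mer), CTACCTC (7mer-m8) or TACCTCA (7mer-A1), with an 8mer counted once. HMGA2 had 7 seed matches in a UTR of 2999 bases. Among the first 2999 bases of the 3049 UTRs of tested genes that are at least this long, 28.0% held a match and 1, that of HMGA2 itself, held 7 or more. The 7 matches of HMGA2 lie on the plus strand of chromosome 12 and are printed with their position past the stop codon, with the match in capitals, because they show how densely this transcript is marked.
HMGA2 8mer at base 21 (chr12:65963302-65963331): acgttcgatttCTACCTCAgcagcagttgg
HMGA2 7mer-A1 at base 1107 (chr12:65964388-65964417): tgaataccactTACCTCAaattaagcatat
HMGA2 7mer-m8 at base 1256 (chr12:65964537-65964566): actactcaataCTACCTCtgaatgttacaa
HMGA2 7mer-A1 at base 1619 (chr12:65964900-65964929): ctccaagtctgTACCTCAaatgaattcttt
HMGA2 7mer-m8 at base 1668 (chr12:65964949-65964978): cttgcaaagacCTACCTCcagacttcaaaa
HMGA2 7mer-m8 at base 2521 (chr12:65965802-65965831): aaaacacactaCTACCTCttaagtcccagt
HMGA2 7mer-A1 at base 2541 (chr12:65965822-65965851): aagtcccagtaTACCTCAtttttcatactg

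LIN28B, IGF2BP1 and ARID3B each had 5 matches, IGF2BP2 and ARID3A had 3, and HMGA1, LIN28A, IGF2BP3 and MYC had 1. The 5 matches of ARID3B lie in 2357 bases, a density that 2 of 4217 UTRs cut to that length reached, ARID3B included. The 5 of IGF2BP1 are spread over 6701 bases, where 3 of 543 UTRs reached 5. The single matches of HMGA1 (plus strand) and IGF2BP3 (minus strand) are printed beside the 3 8mers of IGF2BP1 (plus strand) and the first 8mer of LIN28B (plus strand), to set genes that were lower, higher or not expressed side by side.
HMGA1 7mer-m8 at base 960 (chr6:34245833-34245862): ctgttcacaaaCTACCTCtggacagttgtg
IGF2BP3 8mer at base 560 (chr7:23311784-23311813): tttttactcaaCTACCTCAggtattcagta
IGF2BP1 8mer at base 1632 (chr17:49051065-49051094): tgcgaagtaaaCTACCTCAaggtatgaagt
IGF2BP1 8mer at base 4269 (chr17:49053702-49053731): agtgctagtaaCTACCTCAcagagccccag
IGF2BP1 8mer at base 4923 (chr17:49054356-49054385): aaatggattaaCTACCTCAatccttacagt
LIN28B 8mer at base 44 (chr6:105078816-105078845): ggttgcaaagtCTACCTCAtgcaagtatag

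The RBFOX motif TGCATG occurred 2 times in the 3' UTRs of HMGA2 and LIN28B, once in those of LIN28A, IGF2BP2, ARID3A and MYC, and not in those of HMGA1, IGF2BP1, IGF2BP3 and ARID3B. The motif is common, since 59.8% of UTRs cut to the length of HMGA2's held it and 25.6% held it at least 2 times. Neither occurrence in HMGA2 overlaps a let-7 match. A match of letters is a description and does not show that a factor binds there.
HMGA2 TGCATG at base 378 (chr12:65963658-65963687): caatcactgcacTGCATGcaaacaagaaac
HMGA2 TGCATG at base 913 (chr12:65964193-65964222): acaacagaataaTGCATGatgaactcacct

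**Figure D1:**
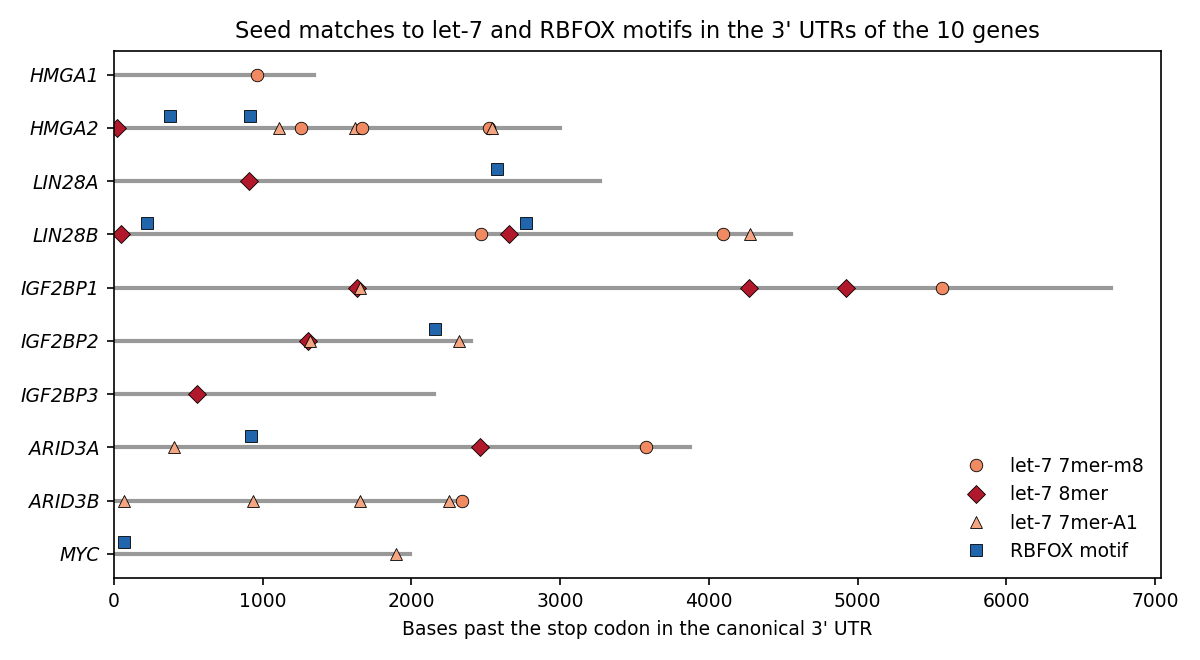
Positions of let-7 seed matches and of the RBFOX motif along the canonical 3' UTR of the 10 genes, in bases past the stop codon on the horizontal axis, with 1 gray line per gene. HMGA2 carries 7 let-7 matches in 2999 bases, whereas HMGA1, LIN28A, IGF2BP3 and MYC carry 1 each.

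The libraries held between 7433414 and 23249221 counts on genes, the shallowest being RBFOX1 replicate 1. GFP replicate 1, the deepest, stood apart from the other GFP libraries, where the chi-square statistic of their counts over its degrees of freedom was 8.08 and 8.23, against 1.60 to 2.80 for the other pairs of replicates. RBFOX1 itself had 4, 0 and 1 counts in the GFP libraries and 10276, 16467 and 21451 in the RBFOX1 libraries, as the labels say. Values below are normalized counts, that is, counts scaled by TMM (trimmed mean of M-values) to a common library size, on which 3 counts correspond to 1.82 to 5.44. With a biological coefficient of variation of 0.0542, 46.7% of all tested genes differed between RBFOX1 and GFP cells in edgeR's quasi-likelihood test at an adjusted p under 0.05, so a difference was common in these cells. Markers were read from the same fit. Of the 7 tested glial markers SOX2 and NES rose (log2 2.53 and 0.60) and VIM, CD44 and OLIG2 fell (log2 -0.65, -0.90 and -0.50). Their summed level was 78734 to 80044 in GFP and 52760 to 53324 in RBFOX1 libraries, most of it VIM, the intermediate filament vimentin, with means of 59589 and 37905. The astrocyte markers GFAP and S100B had at most 4 and 2 counts in any library. Of the 4 tested neuronal markers 3 rose (sum 182 to 192 against 439 to 578, with DCX at 0). The only called gene on the pluripotency list was again SOX2, which is on both lists (sum 20.0 to 30.4 against 124 to 143, with DPPA4 and LIN28A at 0). Of the 5 tested leukocyte and endothelial markers 4 rose (sum 26.9 to 43.1 against 160 to 175, with CD3E at 0). The part of these shifts in the results was not tested, and in bulk RNA fewer cells of a type and less RNA per cell cannot be told apart.

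HMGA2 (ENSG00000149948, chr12:65824460-65966291, plus strand) was lower by the widest margin of the 8 expressed genes. It had 557, 566 and 617 normalized counts in the GFP libraries and 21.8, 18.9 and 17.3 in the RBFOX1 libraries, from raw counts of 918, 485 and 586 against 12, 17 and 19. The groups were far apart, and every RBFOX1 library still held HMGA2 reads above the level of 3 counts. The means were 580 ± 32.4 in GFP cells and 19.3 ± 2.24 in RBFOX1 cells (SD, n = 3), and the fitted difference was 30.5-fold (log2 -4.93 ± 0.13 SE). Of the 20536 tested genes, 9 (0.0438%), HMGA2 included, had a log2 fold change this low or lower, a rank that repeats the choice of the gene.

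HMGA1 (ENSG00000137309, chr6:34236873-34246231, plus strand), the other architectural protein of the family and one that most proliferating cells make, was lower too. It had 7854, 7584 and 7564 normalized counts in the GFP libraries and 1738, 1494 and 1769 in the RBFOX1 libraries. The GFP libraries lay within a narrow band and none of the RBFOX1 libraries came near it. The fold was 4.60 (log2 -2.20 ± 0.059 SE), and 1.16% of tested genes lay at or below it. The gene has 8 annotated pseudogene copies in the files, 4 of which had counts. Together these held 0.539% to 1.67% of the counts of HMGA1 in any library, so few reads were assigned to a copy. Reads that fit HMGA1 and a copy equally well cannot be counted here, because only reads assigned to a gene were used.

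Both HMGA genes were thus far below their GFP level, and they differ in abundance. Per kilobase of exon, HMGA1 stood at 3295 ± 69.6 (SD, n = 3) normalized counts in GFP cells and 716 ± 64.6 in RBFOX1 cells, and HMGA2 at 38.5 ± 2.15 and 1.28 ± 0.149. HMGA2 made up 1.16% ± 0.082 of the summed family level per kilobase in GFP cells and 0.180% ± 0.025 in RBFOX1 cells (SD, n = 3). Per kilobase of the longest transcript these shares were 1.98% and 0.310%. The summed family level went from 3333 ± 68.2 to 718 ± 64.6 per kilobase, nearly all of it HMGA1.

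LIN28A (ENSG00000131914, chr1:26410817-26429728, plus strand) had 0 counts in all 6 libraries. LIN28B (ENSG00000187772, chr6:104936616-105083332, plus strand) had 1 count in GFP replicate 1 and 0 in the other libraries. Neither reached the minimum of 10 summed counts, so neither was tested. A difference in the inhibitors of let-7 maturation could not be measured at this depth. With 3 or fewer counts in every library of both groups, no fold is given.

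The 3 IGF2BP genes, whose proteins bind mRNAs and are known to affect their stability, transport and translation, differed in direction. IGF2BP3 (ENSG00000136231, chr7:23310209-23470491, minus strand) had 2983, 3063 and 2939 normalized counts in the GFP libraries and 1228, 1387 and 1292 in the RBFOX1 libraries. It was 2.29-fold lower in RBFOX1 cells, with no overlap (log2 -1.20 ± 0.054 SE), and 4.89% of tested genes had a log2 fold change at or below it. IGF2BP1 (ENSG00000159217, chr17:48997385-49056145, plus strand) had 649, 679.7 and 718 normalized counts in the GFP libraries and 1025, 879 and 880.2 in the RBFOX1 libraries. It was 1.35-fold higher, with no overlap between the groups (log2 0.44 ± 0.069 SE). IGF2BP2 (ENSG00000073792, chr3:185643130-185825042, minus strand), the member of the family that adult tissues also make, had 588, 621 and 616 normalized counts against 678, 658 and 654. Its groups did not overlap, but the difference was small (log2 0.13 ± 0.063 SE) and was not called in the fit across all genes.

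The makeup of the IGF2BP family changed with these values. Per kilobase of exon the summed family level was 536 ± 9.44 normalized counts in GFP cells and 373 ± 6.92 in RBFOX1 cells (SD, n = 3). IGF2BP3 accounted for 65.5% ± 0.96 of it in GFP cells and 40.9% ± 2.5 in RBFOX1 cells. The share of IGF2BP2 went from 21.3% ± 0.35 to 33.3% ± 0.52, and that of IGF2BP1 from 13.2% ± 0.64 to 25.8% ± 2.1 (SD, n = 3). Per kilobase of the longest transcript, IGF2BP1 went from 8.43% to 18.7% and IGF2BP3 from 76.1% to 53.9%. No share in a GFP library overlapped the shares of the same gene in the RBFOX1 libraries, and IGF2BP3 remained the most abundant of the 3 genes per kilobase in every library.

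**Figure D2:**
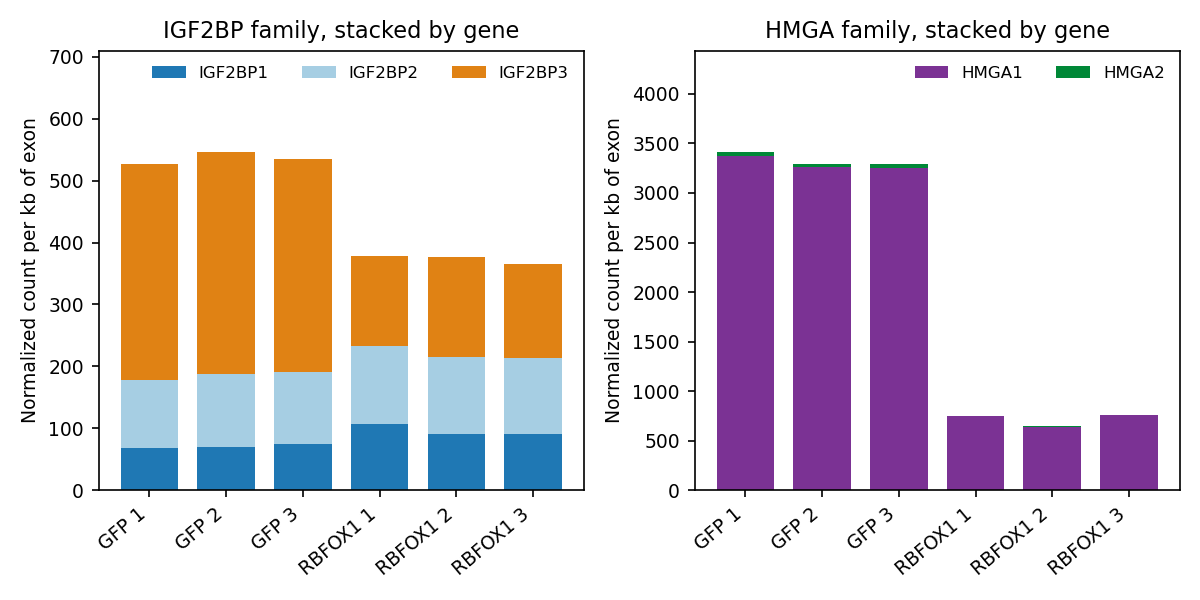
Normalized counts per kilobase of exon in each of the 6 libraries, stacked by gene, for the IGF2BP family (left) and the HMGA family (right), from an axis that starts at 0. The orange IGF2BP3 segment shrinks from 65.5% to 40.9% of its family on average, and the HMGA bars drop from a mean of 3333 to 718.

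ARID3A (ENSG00000116017, chr19:925781-975939, plus strand) had 159, 154 and 162 normalized counts in the GFP libraries and 183, 170 and 178 in the RBFOX1 libraries. The groups did not overlap, at a log2 difference of 0.15 ± 0.097 (SE) that was not called. ARID3B (ENSG00000179361, chr15:74541206-74598131, plus strand), its paralog, had 42.5, 56.1 and 50.6 normalized counts against 63.5, 68.8 and 72.1. All RBFOX1 libraries lay above all GFP libraries, at a log2 fold change of 0.50 ± 0.16 (SE). It is the least abundant of the 8 genes in GFP cells, and its call was not kept with DESeq2, without GFP replicate 1 or without RBFOX1 replicate 3, where its log2 fold change was 0.49, 0.38 and 0.46.

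MYC (ENSG00000136997, chr8:127735434-127742951, plus strand), the transcription factor that drives growth and ribosome production, had 513, 517 and 560 normalized counts in the GFP libraries and 1164, 930.4 and 1108 in the RBFOX1 libraries. The lowest RBFOX1 library was well above the highest GFP library, at a fitted 2.01-fold higher level (log2 1.01 ± 0.077 SE), and 10.6% of tested genes had a log2 fold change at or above it.

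**Figure D3:**
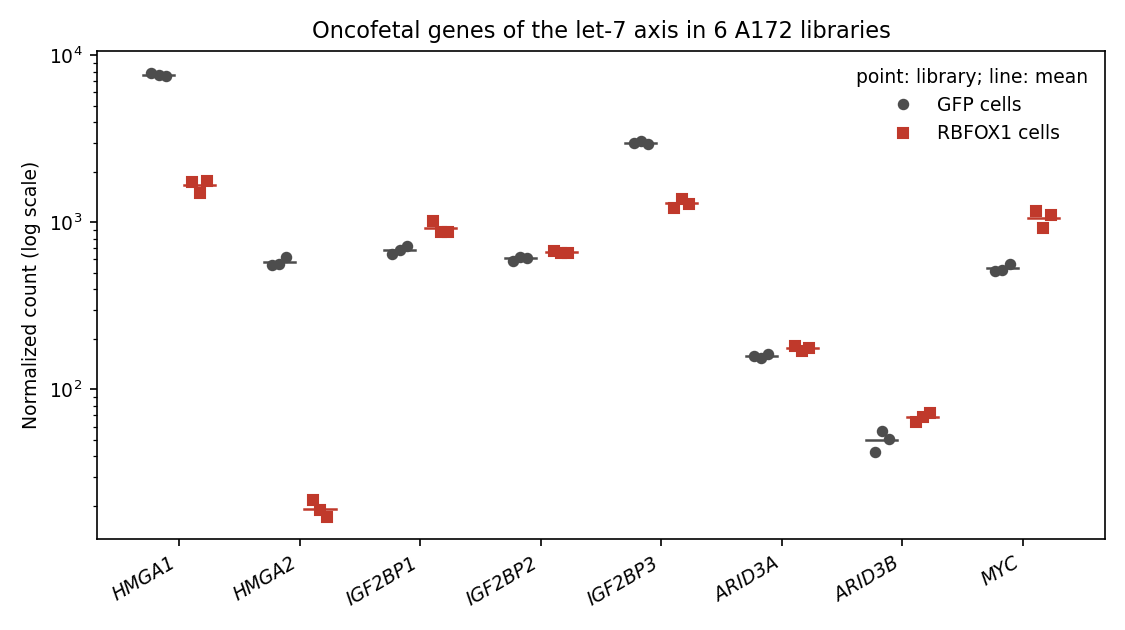
Normalized counts of the 8 expressed genes in each library, on a log axis, with GFP libraries as gray circles, RBFOX1 libraries as red squares and a line at each group mean (n = 3). HMGA2 drops from 580 to 19.3, HMGA1 and IGF2BP3 are lower by 4.60-fold and 2.29-fold, and MYC is 2.01-fold higher.

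Of the 8 tested genes, 3 were called lower (HMGA1, HMGA2 and IGF2BP3), 3 higher (IGF2BP1, ARID3B and MYC) and 2 were not called, where 22.9% of all tested genes were called lower and 23.7% higher. All 8 had groups that did not overlap, as had 53.4% of all tested genes, with 5 above and 3 below the GFP libraries. The median log2 fold change was 0.14, against 0.0051 over all tested genes. Nothing is read from these counts, because the genes were chosen with this contrast known. Without GFP replicate 1 the log2 fold changes were -4.96 for HMGA2, -2.18 for HMGA1, -1.19 for IGF2BP3, 0.40 for IGF2BP1, 0.10 for IGF2BP2, 0.16 for ARID3A, 0.38 for ARID3B and 0.98 for MYC. The largest differences among the 8 genes were the falls of HMGA2, HMGA1 and IGF2BP3, and the fall of HMGA2 was the ground for the choice.

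In GFP cells the levels of the 8 genes per kilobase of exon formed a clear order. HMGA1 was followed by IGF2BP3 at 351 ± 7.36, IGF2BP2 at 114 ± 3.34, MYC at 86.8 ± 4.29, IGF2BP1 at 70.9 ± 3.62, HMGA2 at 38.5 ± 2.15, ARID3A at 21.96 ± 0.564 and ARID3B at 8.04 ± 1.10 (SD, n = 3). No neighbours in this order overlapped between libraries. Per kilobase of the longest transcript in place of all exons, HMGA2 stood at 71.7, IGF2BP3 at 701 and MYC at 143, and MYC then stood beside IGF2BP2 at 142, so the order of these genes depends on the transcript that is used.

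The number of let-7 matches did not sort the genes by direction. Among the 3 genes with at least 5 matches that were tested, HMGA2 (7 matches) was 30.5-fold lower, whereas IGF2BP1 and ARID3B (5 each) were higher. Among the 3 tested genes with 1 match, HMGA1 and IGF2BP3 were lower and MYC was higher. IGF2BP2 and ARID3A, with 3 matches each, had the smallest differences of the 8. These are 8 genes chosen with their values known, and the sites were read in 1 canonical transcript each, so an mRNA that ends earlier would hold fewer.

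The same count was made in the 3' UTRs of the other tested protein-coding genes. The 11578 genes with no match had a median log2 fold change of 0.023, with 30.6% called higher and 28.3% lower. The 2008 genes with 1 match had a median of -0.0060, with 29.1% higher and 30.8% lower. The 355 genes with 2 matches had a median of -0.050, with 28.5% higher and 35.5% lower. The 103 genes with 3 or more matches had a median of -0.054, with 31.1% higher and 31.1% lower. The medians differed by less than 0.1 on the log2 scale, and UTR length moved with the number of matches, from a median of 1037 bases with none to 7320 with 3 or more, so the 2 cannot be told apart here. Of the 24 other tested genes with at least 4 matches, 8 were called higher, 6 lower and 10 were not called, with a median log2 fold change of 0.054. TRIM71 had 8 matches and was not called. Named by number of matches, genes with 5 or 6 ran from NR6A1 (5 matches, log2 -1.27) through HEMK1 (6, log2 -0.24) to CLCN5 (6, log2 0.62).

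**Figure D4:**
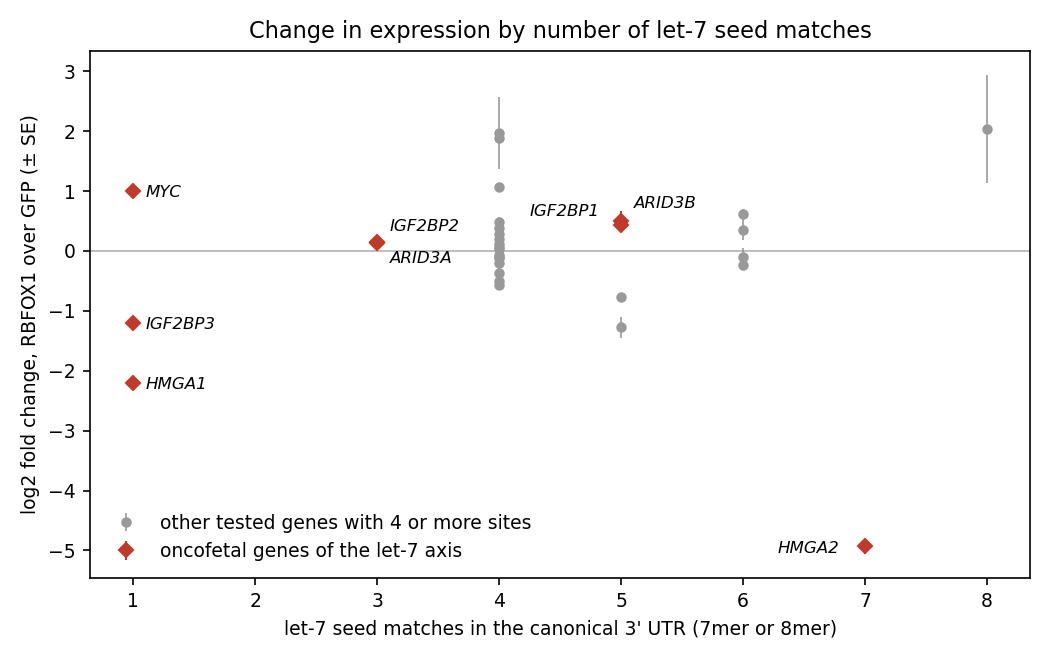
Log2 fold change of RBFOX1 over GFP cells (vertical axis, ± SE) against the number of let-7 seed matches in the 3' UTR (horizontal axis) for the 8 genes (red diamonds) and for the 24 other tested genes with at least 4 matches (gray circles). HMGA2 lies alone at -4.93 with 7 matches, while IGF2BP1 and ARID3B sit above 0 with 5.

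Mature let-7 was not measured, since the libraries hold long RNA, but the genes that carry its hairpins were counted. All 9 host genes on the strand of a let-7 or miR-98 hairpin were tested, and in edgeR's quasi-likelihood test 2 rose, 1 fell and 6 were not called, where 46.7% of all tested genes were called. MIR100HG, the noncoding host of let-7a-2 on chromosome 11, had raw counts of 3334, 1734 and 1949 against 488, 713 and 821. It fell from 2034 ± 16.6 to 809 ± 69.4 normalized counts (SD, n = 3; log2 -1.34 ± 0.060 SE, edgeR adjusted p = 3.09e-13), with no overlap. The let-7a-2 hairpin gene within it had 22, 16 and 11 counts against 6, 3 and 5 and fell with it (log2 -1.35, edgeR adjusted p = 0.0134), and its reads may be those of the host transcript. MIR99AHG, the host of let-7c, rose from 114 ± 11.2 to 168 ± 19.9 (log2 0.51, edgeR adjusted p = 0.00122), and WDR82, the protein-coding host of let-7g, rose from 1748 ± 92.2 to 2491 ± 27.9 (log2 0.51, edgeR adjusted p = 6.25e-08; SD, n = 3). The host of let-7a-1, let-7d and let-7f-1 (MIRLET7A1HG, log2 0.20), that of let-7a-3 and let-7b (MIRLET7BHG, log2 -0.05), those of let-7i (MIRLET7IHG, log2 0.05, and ENSG00000275180, log2 -0.28), SPACA6, the host of let-7e (log2 -0.16), and HUWE1, the host of miR-98 and let-7f-2 (log2 -0.10), were not called. Without GFP replicate 1 HUWE1 was called lower, at log2 -0.18. Of the 12 hairpin genes 10 were in the files, with at most 22 counts in any library, which is not a measure of the mature microRNA.

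Genes that make or use let-7 moved in both directions. Of 22 tested, 8 rose, 6 fell (3 without RBFOX1 replicate 2 and 2 without RBFOX1 replicate 3) and 8 were not called (63.6% called, median log2 0.13, against 46.7% and 0.0051 over all tested genes). Among protein-coding genes with a mean of at least 50 normalized counts, which most of these are, 65.1% were called. TUT7, which with TUT4 adds uridines to pre-let-7 when LIN28A is bound, fell from 2686 ± 118 to 954 ± 37.1 normalized counts (SD, n = 3; log2 -1.49 ± 0.055 SE, edgeR adjusted p = 1.71e-14), while TUT4 had a log2 difference of 0.07. DICER1, which cuts the hairpin and is also a let-7 target, rose from 1299 ± 61.2 to 1762 ± 98.4 (log2 0.44, edgeR adjusted p = 1.73e-06). MSI1, an RNA-binding protein of neural stem cells that is known to act with LIN28 on a hairpin of the let-7 family, rose at log2 0.82 (edgeR adjusted p = 0.00536), and TNRC6C, a scaffold of the silencing complex, fell at log2 -0.33. Both lost their call with DESeq2, at adjusted p = 0.0532 and 0.0739, and TNRC6C also in edgeR without GFP replicate 2, RBFOX1 replicate 2 or RBFOX1 replicate 3 (adjusted p = 0.0555, 0.0864 and 0.0734).

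Of 23 tested genes described elsewhere as let-7 targets, 8 rose, 5 fell and 10 were not called (56.5% called, median log2 0.047). The share called over all tested genes was 46.7%, with a median log2 of 0.0051. Over protein-coding genes with a mean of at least 50 normalized counts it was 65.1%. THBS1, the matrix protein thrombospondin 1, rose from 198 ± 22.4 to 1604 ± 31.6 normalized counts (SD, n = 3; log2 3.02 ± 0.073 SE, edgeR adjusted p = 2.86e-17). RRM2, a subunit of the enzyme that makes deoxyribonucleotides, rose at log2 2.21. NR6A1, an orphan nuclear receptor of embryonic cells, fell from 72.3 ± 9.36 to 30.01 ± 2.63 (log2 -1.27 ± 0.18 SE, edgeR adjusted p = 6.54e-06), and TGFBR1, a receptor for TGF-beta, fell at log2 -1.002. The tested targets thus stood on both sides of 0, as the 8 expressed genes of the axis did.

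Of the other oncofetal genes that could be tested, most were called lower in edgeR. This list, like the others, was chosen with earlier results of these data known. Its counts are therefore a description and no independent support for a fall of oncofetal genes. Of 11 genes 7 were tested, of which 5 fell (3 with DESeq2), none rose and 2 were not called (71.4% called, median log2 -1.10). Over all tested genes 46.7% were called and 22.9% were called lower. The count of rises was 0 with edgeR's adjusted p and with DESeq2, 1 without GFP replicate 1, and 1 at an unadjusted p under 0.05, which is TRIM71, a stem cell let-7 target with at most 6 counts in any library. NR6A1 is among the 5. IGF2, a fetal growth factor, had 32, 23 and 23 raw counts against 6, 9 and 12 and fell at log2 -1.10 ± 0.29 (SE, edgeR adjusted p = 0.00418; 0.0555 with DESeq2). PLAG1, a fetal transcription factor whose expression HMGA2 is known to raise, had 40, 19 and 27 raw counts against 1, 2 and 2, a ratio of 12.7 (95% exact interval 5.23 to 40.1, which covers counting error only). TPBG, the oncofetal antigen 5T4, fell from 1383 ± 147 to 822 ± 14.2 (SD, n = 3; log2 -0.76). AFP had 4, 2 and 4 counts against 0, 0 and 0, which is too close to 3 counts for a fold, and with it set at that bound the median of the list was -0.76. PLAG1, TPBG and AFP were named after their values were seen. DLK1 and GPC3 were at 0 in every library.

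Genes placed downstream of HMGA2 did not fall as a set. Of 8 tested, 4 rose (3 with DESeq2), 2 fell (1 with DESeq2) and 2 were not called (75% called, median log2 0.59). The 2 falls were PLAG1 and IGF2, both also counted among the oncofetal genes. Among the 4 rises SNAI1, named after its values were seen, had 1, 1 and 2 counts against 3, 7 and 8. For comparison, 46.7% of all tested genes were called, and 65.1% of protein-coding genes with a mean of at least 50 normalized counts. CCNA2, cyclin A2, rose from 415 ± 21.3 to 1093 ± 3.68 normalized counts (log2 1.39 ± 0.063 SE, edgeR adjusted p = 4.04e-13), and CCNB2, cyclin B2, from 402 ± 19.6 to 910 ± 18.8 (SD, n = 3; log2 1.18). CDKN2A was at 0 in every library.

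Among 9 tested mRNAs known to be bound by IGF2BP proteins, 3 rose (2 with DESeq2), 5 fell (3 without RBFOX1 replicate 1 and 2 with DESeq2) and 1 was not called (88.9% called, median log2 -0.13). Among the 3 rises MAPK4, named after its values were seen, had 3, 0 and 1 counts against 4, 5 and 5. The share called was 46.7% over all tested genes, and 65.1% over protein-coding genes with a mean of at least 50 normalized counts. CD44, a hyaluronan receptor, fell from 13766 ± 2040 to 7366 ± 415 normalized counts (SD, n = 3; log2 -0.90, edgeR adjusted p = 6.75e-09). IGF2 fell as above. ACTB, the beta-actin mRNA whose localization IGF2BP1 is known for, rose at log2 0.58, and GLI1, a Hedgehog transcription factor, rose from 57.8 ± 11.8 to 157 ± 8.23 (log2 1.42 ± 0.14 SE, edgeR adjusted p = 4.95e-08).

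Around MYC, 3 of 10 tested partners and relatives rose (1 without GFP replicate 3), 3 fell (1 with DESeq2) and 4 were not called (60% called, median log2 -0.06). MAX, its obligate partner, fell slightly, from 516 ± 5.62 to 403 ± 20.3 normalized counts (SD, n = 3; log2 -0.37, edgeR adjusted p = 0.000201), and MXD3, a MAX-binding repressor, rose from 113 ± 6.42 to 240 ± 6.53 (log2 1.09). MYCL at log2 0.96 and MXD1 at log2 -0.26 were called with edgeR but not with DESeq2, at adjusted p = 0.141 and 0.126. Both also lost their call in edgeR without GFP replicate 2, GFP replicate 3, RBFOX1 replicate 2 or RBFOX1 replicate 3, where the log2 fold change of MYCL lay between 0.72 and 0.94 and that of MXD1 between -0.25 and -0.21. Of 14 textbook MYC targets 8 rose, 1 fell (2 without GFP replicate 1) and 5 were not called (64.3% called, median log2 0.32). LDHA, lactate dehydrogenase A, rose at log2 0.68 and GNL3, a nucleolar GTPase, at log2 0.63, and the transferrin receptor TFRC fell at log2 -0.19 (edgeR adjusted p = 4.59e-09, 4.91e-08 and 0.00291). Among the 11069 protein-coding genes with a mean of at least 50 normalized counts, 65.1% were called. The shares called in either direction thus lie near the background for genes of this abundance. By direction, 3484 of these 11069 genes were called higher and 3722 lower, whereas the called MYC targets were mostly higher. The lists were chosen with earlier results of these data known, so nothing is read from this difference.

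In the main fit no listed HMGB or HMGN gene was called lower, unlike HMGA1 and HMGA2. Of 8 tested HMGB and HMGN genes 4 rose, none fell and 4 were not called (50% called, median log2 0.17). That share is near the 46.7% called over all tested genes, and below the 65.1% of protein-coding genes with a mean of at least 50 normalized counts. HMGB2, a DNA-bending chromatin protein, rose from 700.1 ± 22.2 to 2376 ± 153 normalized counts (SD, n = 3; log2 1.76 ± 0.059 SE, edgeR adjusted p = 3.93e-15), and HMGN2, a nucleosome-binding protein, from 492 ± 13.04 to 1014 ± 31.8 (log2 1.04). The count of falls was 0 with edgeR and DESeq2 and 2 at an unadjusted p under 0.05, and 2 genes were called lower when GFP replicate 2 or RBFOX1 replicate 2 was left out.

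**Figure D5:**
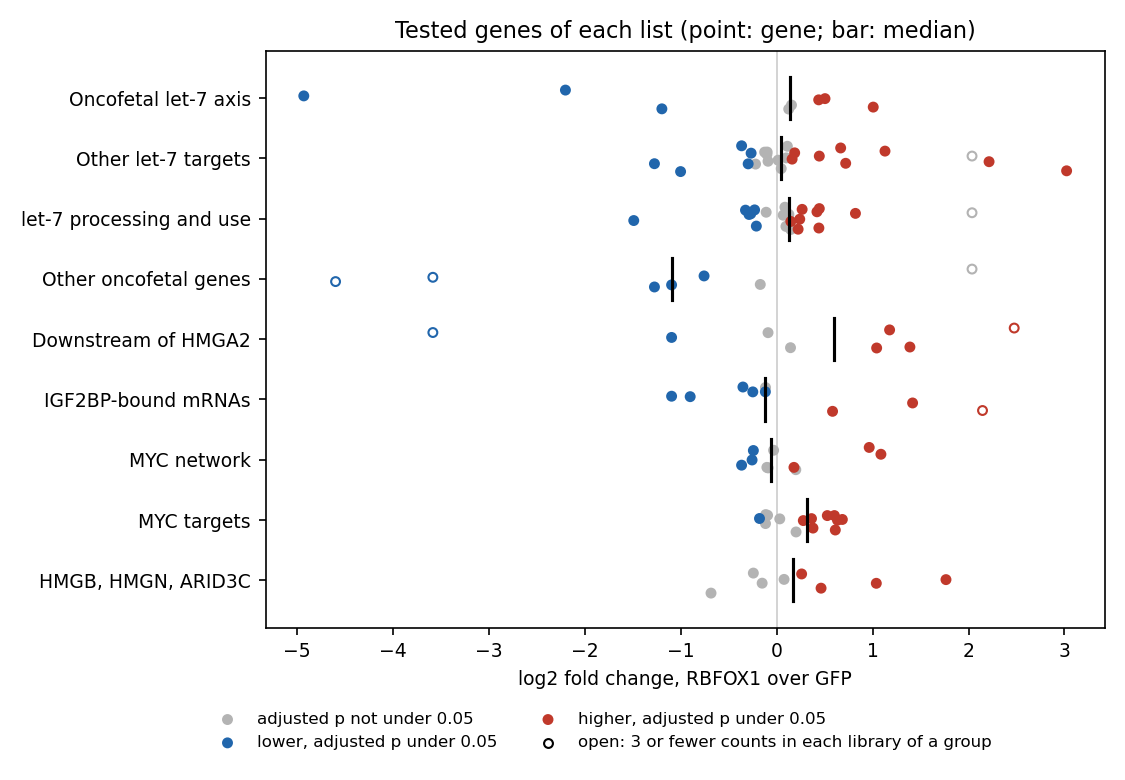
Log2 fold change of RBFOX1 over GFP cells for the tested genes of each list, 1 point per gene, with a bar at the list's median, red and blue for genes called higher and lower, and open points for genes with 3 or fewer counts in each library of a group, whose fitted value is uncertain. The top row spreads from -4.93 for HMGA2 to 1.01 for MYC, the other oncofetal genes lie mostly left of 0, and the MYC targets mostly right of it.

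Genes that share a locus with the 10 were read for overlap. RPSAP52, on the opposite strand of HMGA2, had 7, 5 and 5 counts against 0, 0 and 0 and was at least 1.33-fold lower, taking 3 counts per library as the limit. ENSG00000277945, within HMGA2 on its own strand, had 2, 3 and 5 counts against 0, 0 and 0, for which no fold is given. MIR6835, within HMGA1 on its own strand, had 7, 3 and 3 counts against 1, 0 and 0, a ratio of 9.59 (95% exact interval 1.44 to 408, counting error only). MALSU1, which overlaps IGF2BP3 on the opposite strand, fell from 598 ± 47.1 to 432 ± 25.2 normalized counts (log2 -0.47, edgeR adjusted p = 3.17e-05). ENSG00000250838, opposite IGF2BP1, rose from 12.96 ± 1.47 to 22.5 ± 2.83 (SD, n = 3; log2 0.77, edgeR adjusted p = 0.0241, and 0.183 with DESeq2), and its call was lost without GFP replicate 2, GFP replicate 3, RBFOX1 replicate 2 or RBFOX1 replicate 3 (log2 0.70, 0.74, 0.68 and 0.81). ENSG00000251550, within IGF2BP1, and CASC11, opposite MYC, were not called. The libraries were stranded and counted in 1 direction, so antisense partners were told apart.

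Protein-coding neighbours within 500 kb of the gene bodies were read for the 3 genes that were lower. Of all tested genes 46.7% were called, and of protein-coding genes with a mean of at least 50 normalized counts 65.1%, so called neighbours are common. Around HMGA2, MSRB3 fell at log2 -1.15 and HELB at log2 -0.57, while LLPH and TMBIM4, both at log2 0.07, were not called. Around HMGA1, 3 of 6 tested neighbours rose and 2 fell, SMIM29 at log2 -1.18 and LEMD2 at log2 -0.52. Around IGF2BP3, 3 of 10 rose and 4 fell, the lowest being CCDC126 at log2 -0.65.

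The profile of HMGA2 over the 6 libraries was compared with those of the other protein-coding genes that had a mean of at least 50 normalized counts, by Euclidean distance of centred log2 library-scaled counts. A prior count of 2 was added before the log. It shrinks differences that involve low counts, such as those of TCN1 in RBFOX1 libraries, so its distance depends partly on this setting. The nearest were PAPPA2, a pregnancy-associated metalloproteinase, at a distance of 0.565, TNFRSF11B, the decoy receptor osteoprotegerin, at 0.766, the vitamin B12 binder TCN1 at 0.814, GALNT12, an enzyme that starts O-glycan chains, at 1.38 and the matrix protein tenascin C (TNC) at 1.45. PAPPA2 had 1651 ± 129 normalized counts in GFP cells and 77.4 ± 11.1 in RBFOX1 cells, and TNC had 903 ± 73.8 and 71.5 ± 2.77 (SD, n = 3). TCN1 had 295, 138 and 149 counts against 1, 2 and 3, a ratio of 71.6 (95% exact interval 32.7 to 196, counting error only). All 5 were lower in RBFOX1 than in GFP cells, as HMGA2 was, which follows from the choice by profile.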

How the data were processed

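Total RNA of 3 biological replicates each of stable GFP and RBFOX1 A172 cells was sequenced as stranded, rRNA-depleted libraries (100 bp paired-end). The authors aligned reads to GRCh38 with HISAT2 and deposited raw counts per Ensembl 87 gene from HTSeq-count (reverse strand, intersection-strict). Their DESeq2 table of fold changes and p-values was not used. Library depth ranged from 7433414 to 23249221 counts, and replicates differed by more than sampling noise. The lines of HTSeq for reads on no gene were left out of library sizes, and 52.0% to 61.9% of the reads or pairs HTSeq listed fell on genes.

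Counts were analysed in R 4.3.3 with edgeR 4.0.16 (TMM, glmQLFit, glmQLFTest, condition only, two-sided), for genes with at least 10 counts summed over libraries, with Benjamini-Hochberg adjustment over all of them and calls at an adjusted p under 0.05. SE values are those of the fitted log2 fold change. Names, coordinates, exon lengths and 3' UTRs came from GENCODE 44, later than the counting annotation, in which 98.1% of gene IDs were found. The fit was tested on simulated counts.

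The 10 genes and the lists were chosen with earlier results of these data known. Named genes were these 10, tested genes overlapping them, let-7 hosts, the 5 profiles nearest to HMGA2, and the 2 largest rises and falls among called genes of each list, leaving out genes with 3 or fewer counts in every library of a group. Lists share genes, among them IGF2, PLAG1, NR6A1, TRIM71, DICER1, CD44 and SOX2. Alternatives were DESeq2 1.42.0, its size factors in edgeR, no filter, filterByExpr, a replicate block, leaving out each replicate, and longest transcripts for levels.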

Additional observations from a re-analysis of the deposited data

How the results depend on the processing

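Of 651 values computed for the named genes under the alternatives, 32 lost a call, 1 gained one and none that was called reversed. The alternatives left 5 genes of low count without some values. The calls of HMGA1, HMGA2, IGF2BP1, IGF2BP3 and MYC held in 11 of 11. These refits reuse the libraries and the contrast with which the genes were chosen. They show dependence on the processing only and add no support for a difference. The log2 fold change of HMGA2 ranged from -4.99 to -4.84, and that of ARID3B, called in 8 of 11, from 0.38 to 0.58. The other settings left the median of all genes at or below 0.012. With DESeq2 the other oncofetal genes had 3 falls in place of 5, genes downstream of HMGA2 had 1, IGF2BP-bound mRNAs 2 and the MYC network 1, and the cause was not tested. Leaving out 1 library at a time gave 2 to 7 falls in the let-7 processing list (2 without RBFOX1 replicate 3, 3 without RBFOX1 replicate 2), 0 to 1 rises among other oncofetal genes (1 without GFP replicate 1), 3 to 5 falls among IGF2BP-bound mRNAs (3 without RBFOX1 replicate 1), 1 to 3 rises in the MYC network (1 without GFP replicate 3), 1 to 2 falls among MYC targets (2 without GFP replicate 1) and 0 to 2 falls among HMGB and HMGN genes.

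Per kilobase of the longest transcript, levels in GFP cells were 3551 for HMGA1, 71.7 for HMGA2, 77.6 for IGF2BP1, 142 for IGF2BP2, 701 for IGF2BP3, 26.6 for ARID3A, 11.7 for ARID3B and 143 for MYC. Same-numbered libraries did not deviate together (correlations -0.174, 0.035 and -0.059), and differently numbered ones ranged from -0.161 to 0.181. The numbers thus gave no sign of pairing, which 3 libraries per group cannot exclude. A replicate block called 4588 genes higher and 4458 lower, called 3 of the 8 genes higher and 3 lower, and moved no list's count by more than 1 gene. Among named genes it lost the calls of MYCL and MIR6835. Family shares per kilobase of the longest transcript, given with the results, were an alternative chosen after seeing the data. Depth limits what can be said of LIN28A, LIN28B and the let-7 hairpins, and 3 replicates of 1 cell line limit the rest.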
